A study of Mus musculus with 8 samples.

Results

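Genes of the proteasome were measured in medium spiny neurons (MSNs), which send the output of the striatum to other brain regions, sorted from R6/2 mice and from wild-type mice. The members were all genes whose name in the array files starts with Psma to Psmg followed by a number, and a gene counted as measured when the scanner software marked a probe as well above background on 4 or more of 8 arrays. The name rule took 49 genes with 62 probes, and 47 genes with 60 probes were measured, out of 26915 genes and transcripts tested. Of these, 46 encode proteasome subunits or factors that assemble, activate or regulate the proteasome, and they are described here. Psma8, a testis form of an alpha subunit, was well above background on 0 of 8 arrays, and Psmb11, the thymus form of a catalytic subunit, on 1 of 8. Of the 46 genes, 43 were above background on all 8 arrays and 3, Psmb8, Psmf1 and Psmg2, on 7. Psmc3ip, a factor of meiotic recombination that shares only the start of its name, had a difference of +0.14 and was set apart.

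The R6/2 group held 4 samples of R6/2;Scn4b-Venus mice, and the WT group 4 samples of WT;Scn4b-Venus mice. R6/2 is a Huntington's disease model whose transgene carries the first exon of human HTT with an expanded CAG repeat, while Venus is a fluorescent protein that reports Scn4b and was present in both groups. All mice were male and 4 weeks old, and the sorted cells were Venus-positive and negative for propidium iodide, a dye that enters dead cells. Total RNA of each sample was hybridised to a 1-colour Agilent array. The labels number the samples but do not say that each came from its own mouse, so the p-values measure the spread between these samples, which may be technical.

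The proteasome degrades proteins that carry ubiquitin chains, and mutant huntingtin fragments form ubiquitin-positive inclusions in R6/2 neurons. Its 20S core is a barrel of alpha rings, which gate the channel, and beta rings, which hold the protease sites. The 19S particle caps the core, with a base of ATPases that unfold substrates and a lid that removes ubiquitin. Interferon induces the immunoproteasome subunits Psmb8, Psmb9 and Psmb10, which replace the catalytic subunits Psmb5, Psmb6 and Psmb7.

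The probe sequences of 3 genes are shown, to let the member with the smallest p-value and a pair of exchangeable catalytic subunits be seen. The first is the probe of Psmd14, the lid's deubiquitinase and the member with the smallest p-value, on chr2:61599058-61599117 (mm9, plus strand). The others are from Psmb8 on chr17:34337771-34337830 (mm9, plus strand) and from its constitutive counterpart Psmb5 on chr14:55233161-55233220 (mm9, minus strand). They are 60 bases long and written 5′ to 3′ as in the array files, and capitals in the Psmb8 and Psmb5 probes mark bases that are identical in their best ungapped overlap.
Psmd14: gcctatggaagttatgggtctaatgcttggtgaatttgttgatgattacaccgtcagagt
Psmb8: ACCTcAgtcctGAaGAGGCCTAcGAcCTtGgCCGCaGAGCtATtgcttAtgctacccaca
Psmb5: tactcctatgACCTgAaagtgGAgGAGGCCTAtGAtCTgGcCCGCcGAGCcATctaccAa
In that overlap 31 of 50 bases were identical. This Psmb5 probe is the further one of its gene, while the brighter probe, which gives the Psmb5 levels below, shares at most 21 of 57 bases with the Psmb8 probe.

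Probes well above background made up 74.0% to 78.8% of all probes on the R6/2 arrays and 50.1% to 76.2% on the WT arrays, with WT replicate 1 the lowest. The 75th percentile of the signal was 314 to 383 intensity units on R6/2 arrays and 333 to 353 on WT arrays. Levels below are log2 of the processed intensity minus the array's 75th percentile, so 0 marks a probe at that percentile, and differences are R6/2 minus WT on that log2 scale, given ± SE. Levels of different probes are not compared as amounts of RNA, and summed signals and probe ratios are read between arrays only. The cells carried MSN markers on every array: 10 of 10 were measured on all 8 arrays, and their summed signal was 664 to 756 times the 75th percentile in R6/2 and 987 to 1180 times in WT. All 10 had a negative difference (median -0.64), 7 had an unadjusted p under 0.05 (limma), against 3.45% of all genes lower at that threshold, and 0 had an adjusted p under 0.05 (smallest 0.512). In bulk samples, fewer cells of a type and less RNA per cell cannot be told apart.

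No proteasome gene passed the test in either direction. With limma and Benjamini-Hochberg adjustment over all genes, 0 of 46 had an adjusted p under 0.05, against 0.00372% of all genes tested, and the smallest adjusted p was 0.729. At an unadjusted p under 0.05 the count was also 0 of 46, against 7.15% of all genes. In no member did the 4 R6/2 arrays lie wholly above or wholly below the 4 WT arrays, against 4.73% of all genes (2.16% with R6/2 above, 2.57% with R6/2 below). Probe by probe, 0 of 60 had an unadjusted p under 0.05, against 7.02% of all probes tested, and the smallest was 0.0829.

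The differences were small as well as uncalled. They ran from -0.63 for Psmg1 to +0.62 for Psmd10, with a median of +0.08, beside +0.03 over all genes tested. A positive difference was seen in 31 of 46 members, against 54% of all genes. With 1 array left out this count ran from 25, without WT replicate 3, to 33, without R6/2 replicate 2. The 95% interval of the difference lay wholly within 2-fold either way for 31 of 46 members, or 67.4%, against 51.5% of all genes and 63.2% of genes above background on all 8 arrays. Among the 31 constitutive subunits of core, base and lid it did so for 27, or 87.1%. For these 27 genes a change of 2-fold or more lay outside the interval, and smaller changes are not resolved with 4 arrays a group.

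**Figure D1:**
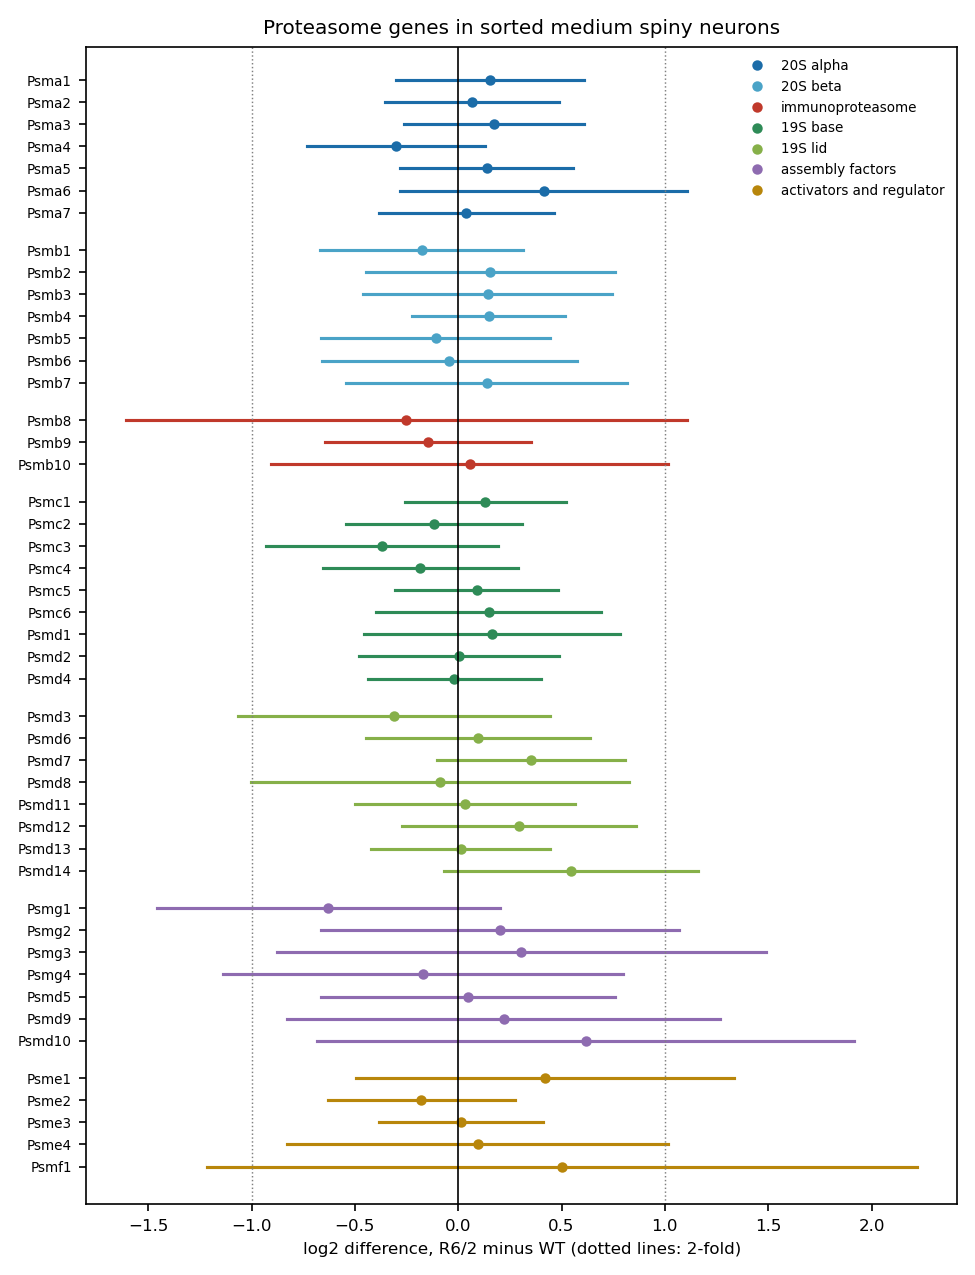
Log2 difference, R6/2 minus WT, of each of the 46 measured proteasome genes (points) with its 95% interval from limma (bars), grouped and coloured by class. Every interval crosses 0, and those of the assembly factors and of Psmb8 and Psmf1 are wider than those of the core and base.

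In the 20S core the differences were of either sign and the class medians were +0.14 for the alpha ring and +0.14 for the beta ring. With 1 array left out the alpha median ran from +0.07 to +0.15, and the beta median from -0.06 to +0.21, turning negative without R6/2 replicate 4, WT replicate 2 or WT replicate 3. In the alpha ring 6 of 7 genes had a positive difference. Psma4, the exception, had log2 levels of 1.19, 1.51, 1.79 and 1.55 in R6/2 replicates 1 to 4, against 1.74, 1.74, 2.00 and 1.78 in WT replicates 1 to 4. R6/2 replicates 1, 2 and 4 lay below every WT array and replicate 3 lay among them, and the difference was -0.30 ± 0.19 (SE, n = 4 each; limma p = 0.145, adjusted p = 0.778; exact permutation p = 0.114). Without R6/2 replicate 1 it was -0.20. A further probe of Psma4, above background on all 8 arrays, gave -0.05 ± 0.21. Psma6, another alpha subunit, had 3.93, 2.99, 3.91 and 3.96 in R6/2 replicates 1 to 4, against 3.43, 2.67, 3.40 and 3.63 in WT replicates 1 to 4. R6/2 replicates 1, 3 and 4 lay above every WT array, and R6/2 replicate 2 and WT replicate 2 were the low arrays of their groups. Its difference was +0.41 ± 0.31 (limma p = 0.210, adjusted p = 0.807; exact permutation p = 0.286). Without R6/2 replicate 2 it was +0.65 with an unadjusted p of 0.0445, and without WT replicate 2 it was +0.21 with an unadjusted p of 0.481. The 5 other alpha genes, Psma1, Psma2, Psma3, Psma5 and Psma7, had differences between +0.04 and +0.17.

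The 7 beta-ring genes all had differences under 0.2 in size. Psmb4, a structural beta subunit, had 4.78, 4.44, 4.60 and 4.68 in R6/2 replicates 1 to 4, against 4.53, 4.51, 4.43 and 4.44 in WT replicates 1 to 4. The WT arrays lay close together, 3 R6/2 arrays lay above all of them, and the difference was +0.15 ± 0.16 (limma p = 0.390, adjusted p = 0.880; exact permutation p = 0.114). Without R6/2 replicate 1 it was +0.10. Psmb1, also without protease activity, had 1.08, 0.67, 0.32 and 0.43 in R6/2 replicates 1 to 4, against 0.74, 0.65, 0.81 and 1.01 in WT replicates 1 to 4, and its difference was -0.18 ± 0.22 (limma p = 0.434, adjusted p = 0.891; exact permutation p = 0.400). The R6/2 arrays spread around the WT arrays on both sides, and the difference was -0.33 without R6/2 replicate 1 and -0.08 without R6/2 replicate 3. Psmb2 (+0.16) and Psmb3 (+0.14) completed the structural subunits.

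The 3 catalytic subunits of the constitutive core had differences inside the range of the other 4 beta genes, -0.18 to +0.16. Psmb5, which cuts after hydrophobic residues, had 4.34, 5.15, 5.09 and 5.11 in R6/2 replicates 1 to 4, against 5.17, 4.94, 4.74 and 5.27 in WT replicates 1 to 4. Only R6/2 replicate 1 was below the WT range, and the difference was -0.11 ± 0.24. Psmb6, which cuts after acidic residues, had 4.02, 3.88, 3.65 and 3.82 in R6/2 replicates 1 to 4, against 3.49, 4.63, 3.61 and 3.81 in WT replicates 1 to 4. WT replicate 2 was the high array, and the difference was -0.04 ± 0.27. Psmb7, which cuts after basic residues, had 3.83, 3.30, 3.61 and 3.57 in R6/2 replicates 1 to 4, against 4.12, 2.98, 2.95 and 3.71 in WT replicates 1 to 4. The R6/2 arrays lay inside the WT range and the difference was +0.14 ± 0.30. The signs of these 3 differences turned when single arrays were left out.

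The immunoproteasome genes Psmb8 and Psmb10 varied more between arrays of a group than between groups. This was not particular to them. Over all 46 members the median SD within groups was 0.33 and the median size of the difference was 0.15. The median SD within groups was 0.66 for the 3 immunoproteasome genes, 0.26 for the constitutive subunits and 0.44 for all genes tested. Psmb9 varied less than Psmb8 and Psmb10, with an SD of 0.35 in R6/2 and 0.15 in WT. Psmb8 had -4.02, -3.74, -3.79 and -2.37 in R6/2 replicates 1 to 4, against -1.69, -3.07, -4.33 and -3.83 in WT replicates 1 to 4, and it was well above background on 4 of 4 R6/2 arrays and 3 of 4 WT arrays. WT replicate 1 and R6/2 replicate 4 were the high arrays, and the difference was -0.25 ± 0.60 (limma p = 0.684, adjusted p = 0.95; exact permutation p = 0.686). Without WT replicate 1, the array with the fewest probes above background, it was +0.26. Psmb10 had -1.33, -1.56, -1.06 and -0.47 in R6/2 replicates 1 to 4, against -0.13, -0.93, -1.97 and -1.61 in WT replicates 1 to 4. The same 2 arrays were the high ones, and the difference was +0.06 ± 0.42 (limma p = 0.898, adjusted p = 0.986; exact permutation p = 0.914). Psmb9 had -1.98, -1.58, -1.67 and -2.36 in R6/2 replicates 1 to 4, against -1.88, -1.87, -1.62 and -1.62 in WT replicates 1 to 4. It was lowest where Psmb8 was high in R6/2, in replicate 4, and the difference was -0.15 ± 0.22 (limma p = 0.520, adjusted p = 0.915; exact permutation p = 0.457).

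Each immunoproteasome subunit was also set against the constitutive subunit it replaces, as the log2 ratio of their probes within an array. This ratio differed by -0.14 between R6/2 and WT for Psmb8 over Psmb5, by -0.10 for Psmb9 over Psmb6 and by -0.08 for Psmb10 over Psmb7. In none of the 3 pairs were the groups separate. Microglia are a further source of immunoproteasome RNA in brain. Of 9 microglia markers 7 were measured, with C1qc and P2ry12 not measured, and 0 of the 7 had an unadjusted p under 0.05. Their summed signal was 27.0 to 32.9 times the 75th percentile in R6/2 and 21.1 to 33.0 times in WT. The brightest Csf1r probe carried most of it. That probe gave a difference of +0.16, while the further Csf1r probes gave -0.41 and -0.23. In WT replicate 1, where Psmb8 and Psmb10 were highest, Csf1r was at its highest (4.88) while Cx3cr1 (-4.70) and C1qa (-4.98) were at their lowest of the 8 arrays, and 5 of the 7 markers were above background. Their part in the levels of Psmb8 and Psmb10 was not tested.

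**Figure D2:**
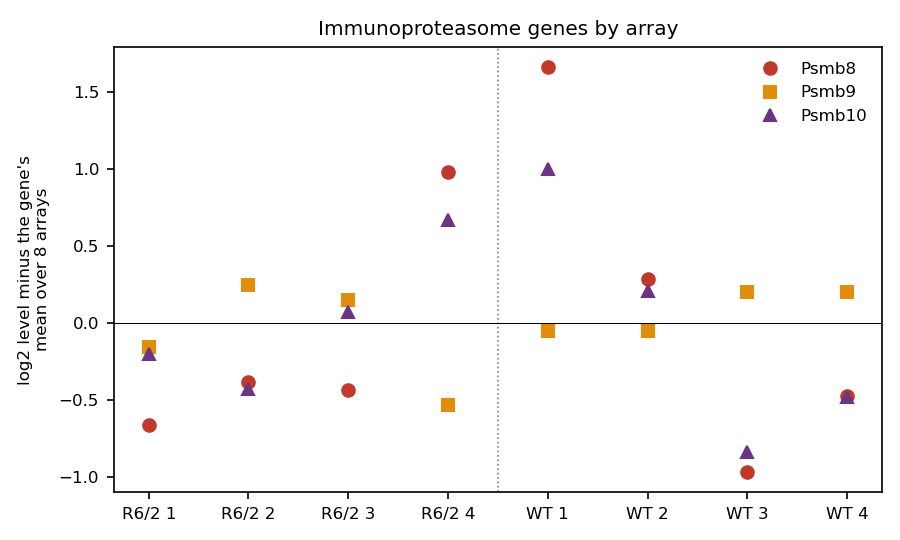
Log2 level of the immunoproteasome genes Psmb8, Psmb9 and Psmb10 in each array, minus that gene's mean over the 8 arrays. Psmb8 and Psmb10 are highest in WT replicate 1 and, among R6/2 arrays, in replicate 4, and the groups overlap for all 3 genes.

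The genes of the 19S base had a median difference of +0.00 to 2 decimals, from -0.37 to +0.17. The 6 ATPases were split evenly, with 3 positive and 3 negative and a median of -0.01. Psmc3, one of the ATPases, had 5.13, 4.83, 5.44 and 5.34 in R6/2 replicates 1 to 4, against 5.26, 6.07, 5.26 and 5.61 in WT replicates 1 to 4. Its highest arrays were WT replicates 2 and 4, and the difference was -0.37 ± 0.25 (limma p = 0.171, adjusted p = 0.791; exact permutation p = 0.20). Without WT replicate 2 it was -0.20. A further probe of Psmc3, above background on all 8 arrays, gave -0.07 ± 0.22. Psmc4, another ATPase, had 2.36, 2.76, 2.65 and 2.40 in R6/2 replicates 1 to 4, against 2.65, 2.38, 2.85 and 3.04 in WT replicates 1 to 4, with a difference of -0.18 ± 0.21 (limma p = 0.401, adjusted p = 0.881; exact permutation p = 0.314). Here WT replicate 4 was highest and R6/2 replicate 1 lowest, and the groups overlapped. The difference was -0.08 without WT replicate 4 and -0.30 without WT replicate 2. Among the non-ATPase genes of the base, the scaffolds Psmd1 and Psmd2 had +0.17 and +0.00, and the ubiquitin receptor Psmd4 had -0.02.

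WT replicate 2, in which Psmc3 and Psmb6 were highest, also had the highest oligodendrocyte marker signal. All 5 of these markers were measured, and their summed signal was 5.86 to 13.0 times the 75th percentile in R6/2 and 5.95 to 40.4 times in WT. Their part in the levels of Psmc3, Psmb6 and the other base genes was not tested.

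The lid held the smallest p-value of the proteasome. Psmd14, which removes ubiquitin chains from substrates at the lid, had 1.18, 0.34, 0.64 and 0.33 in R6/2 replicates 1 to 4, against 0.61, -0.04, -0.17 and -0.10 in WT replicates 1 to 4. All R6/2 arrays lay above WT replicates 2, 3 and 4, and WT replicate 1 lay among the R6/2 arrays. The difference was +0.55 ± 0.27, a 1.46-fold ratio with a 95% interval of 0.95 to 2.24 (SE, n = 4 each; limma p = 0.0760, adjusted p = 0.729; exact permutation p = 0.0857). Without WT replicate 1 it was +0.72 with an unadjusted p of 0.0232, and without R6/2 replicate 1 it was +0.36 with an unadjusted p of 0.198. Psmd7, the inactive partner of Psmd14 in the lid, had 4.93, 4.72, 4.91 and 5.01 in R6/2 replicates 1 to 4, against 4.46, 4.21, 4.58 and 4.90 in WT replicates 1 to 4. R6/2 replicates 1, 3 and 4 lay above every WT array and replicate 2 fell below WT replicate 4. The difference was +0.35 ± 0.20 (limma p = 0.111, adjusted p = 0.763; exact permutation p = 0.0571). Without WT replicate 4 it was +0.47 with an unadjusted p of 0.0455, and the lowest value with 1 array left out was +0.24. The 6 other lid genes, Psmd3, Psmd6, Psmd8, Psmd11, Psmd12 and Psmd13, which form the scaffold of the lid, lay between -0.31 for Psmd3 and +0.29 for Psmd12.

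Core and 19S particle were set side by side without a test of their difference. The median difference was +0.14 over the 14 core genes and +0.03 over the 17 genes of base and lid. With 1 array left out, the medians of base (-0.09 to +0.09) and lid (-0.03 to +0.16), like that of the beta ring, changed sign. Within one array the median deviation of all 46 genes from their means ran from -0.08 to +0.12 in R6/2 and from -0.10 to +0.04 in WT, so the arrays of both groups overlapped. For the 8 lid genes alone these ranges were -0.0276 to +0.232 in R6/2 and -0.181 to -0.0286 in WT, which do not overlap but nearly touch. The mean deviation of the lid genes did overlap, at -0.08 to +0.14 in R6/2 and -0.12 to +0.06 in WT.

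**Figure D3:**
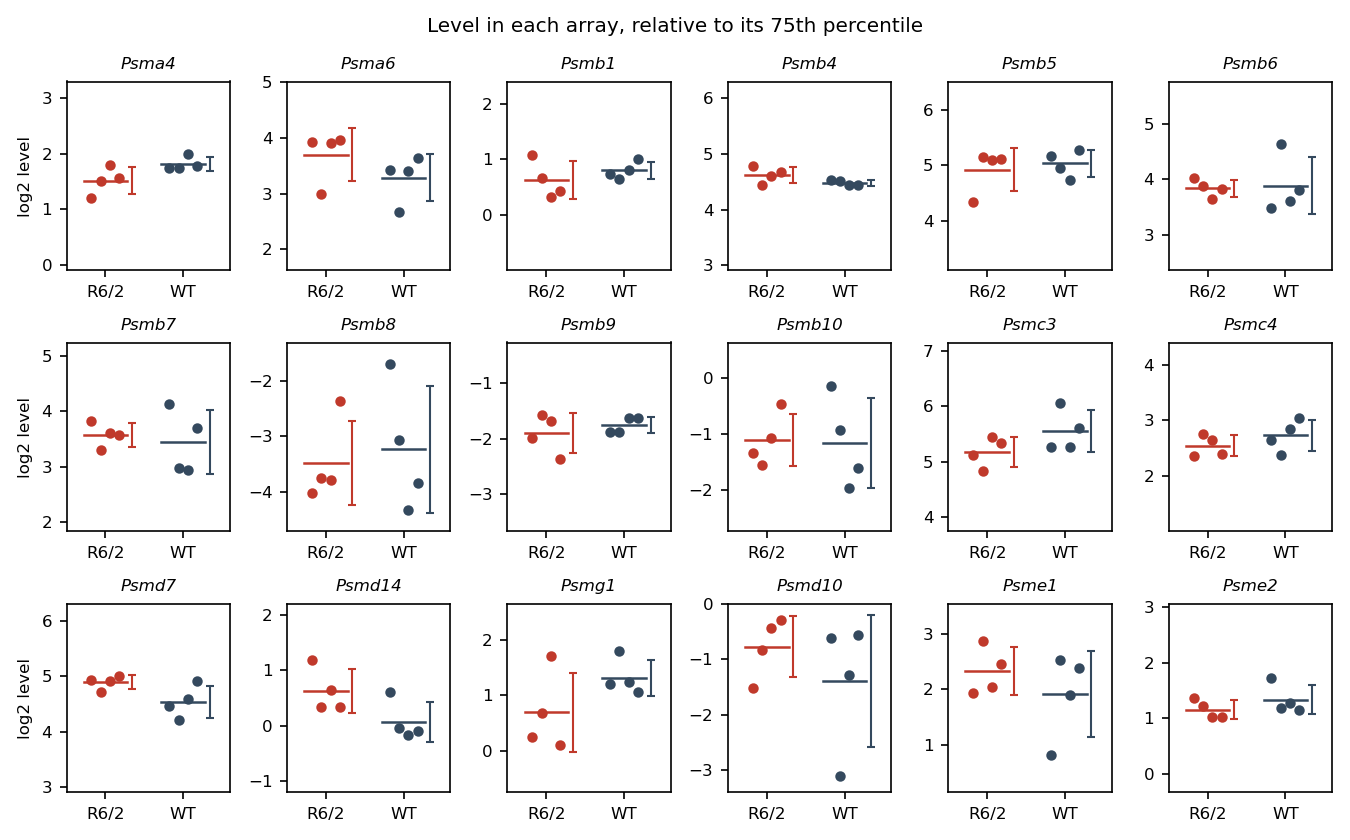
Log2 level relative to the array's 75th percentile of 18 members in each array (points, R6/2 left, WT right), with the group mean (line) and SD (bar, n = 4 each). Each vertical axis spans 3.4 log2 units, and the groups overlap in every panel.

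The assembly factors had the widest spread. Psmg1, a chaperone of the alpha ring, had 0.26, 0.69, 1.71 and 0.12 in R6/2 replicates 1 to 4, against 1.21, 1.79, 1.23 and 1.05 in WT replicates 1 to 4. R6/2 replicates 1, 2 and 4 lay below every WT array while R6/2 replicate 3 was near the top, and the difference was -0.63 ± 0.36 (limma p = 0.120, adjusted p = 0.765; exact permutation p = 0.171). Without R6/2 replicate 3 it was -0.97 with an unadjusted p of 0.00714, and without R6/2 replicate 4 it was -0.44 with an unadjusted p of 0.277. A further probe of Psmg1 gave -0.73 ± 0.54. Psmd10, known as gankyrin and a chaperone of the base, had -1.53, -0.84, -0.44 and -0.30 in R6/2 replicates 1 to 4, against -0.63, -3.10, -1.28 and -0.56 in WT replicates 1 to 4. WT replicate 2 was far below the other arrays, and the difference was +0.62 ± 0.57 (limma p = 0.308, adjusted p = 0.853; exact permutation p = 0.457). Without WT replicate 2 it was +0.05, and the further probe of Psmd10 gave -0.36 ± 0.43. The other alpha-ring chaperones Psmg2, Psmg3 and Psmg4 had +0.20, +0.31 and -0.17, and the other base chaperones Psmd5 and Psmd9 had +0.05 and +0.22.

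Among activators, Psme1 and Psme2 encode the PA28 ring, which interferon induces. Psme1 had 1.93, 2.87, 2.04 and 2.46 in R6/2 replicates 1 to 4, against 0.82, 2.52, 1.90 and 2.39 in WT replicates 1 to 4. WT replicate 1 was the low array, and the difference was +0.42 ± 0.40 (limma p = 0.324, adjusted p = 0.859; exact permutation p = 0.400). Without WT replicate 1 it was +0.06, and without R6/2 replicate 2 it was +0.24. The Psme1 probe is spotted 10 times on each array, and the SD between those spots was 0.08 to 0.21. Psme2 had 1.36, 1.22, 1.02 and 1.01 in R6/2 replicates 1 to 4, against 1.71, 1.18, 1.28 and 1.15 in WT replicates 1 to 4, with a difference of -0.18 ± 0.20 (limma p = 0.391, adjusted p = 0.880; exact permutation p = 0.314). R6/2 replicates 3 and 4 lay just below the WT range, and the difference was -0.05 without WT replicate 1. The probe that represents Psme2 spans 219297 bases of mm9 in the array annotation, so it is uncertain that it reads this gene alone, and the other 2 probes gave -0.04 and +0.30. Psme3, the nuclear PA28 form, had +0.01, Psme4, the activator PA200, had +0.09, and Psmf1, the inhibitor PI31, had +0.50 ± 0.75.

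Several genes were read by more than 1 probe, which allowed a check within the arrays. In 12 genes there were 13 further probes, of which 9 gave the same sign as the brightest probe and 4 the opposite sign. The median gap between probe differences was 0.20. The largest, 1.09, was for Psmb9, whose further probe was well above background on 3 of 4 R6/2 arrays and 1 of 4 WT arrays. That probe passed the filter mainly through R6/2, so its fitted difference of +0.95 ± 0.56 is no measured fold. The 2 Psmc2 probes share 50 identical bases and gave -0.12 and -0.16. For Psmb5, the probe printed above gave +0.07 and the brighter one -0.11.

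**Figure D4:**
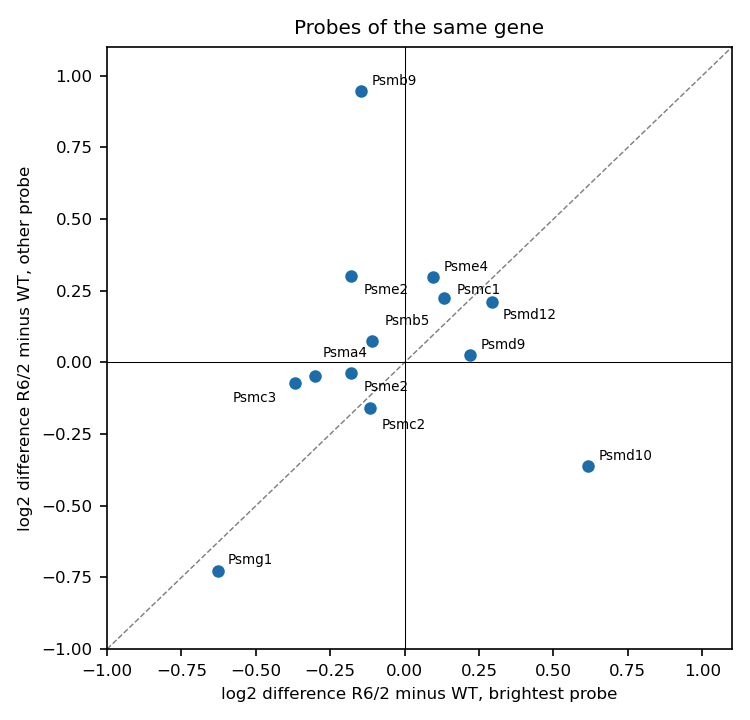
Log2 difference, R6/2 minus WT, from the brightest probe of a gene (horizontal axis) and from each further measured probe (vertical axis), with the line of equality dashed. Psmb9 and Psmd10 lie farthest from the line, and the further probe of Psmb9 was well above background on only 1 WT array.

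Promoters were compared because proteasome genes are known as targets of the transcription factor Nrf1 (Nfe2l1), which binds antioxidant response elements and raises proteasome genes after proteasome inhibition. RefSeq windows of 300 bases (GRCm38.p6, 250 bases before to 50 after the start) were at hand for 39 of the 46 members. The motif TGACNNNGC, searched on both strands, was in 6 of them (15.4%), against 14.0% of 27025 genes with a window. These were Psmb5, Psmb6, Psmc6, Psmd12, Psmd9 and Psme4, with a median difference of +0.12 and a range of -0.11 to +0.29. The 33 others had a median of +0.06. The 250 bases before the start are given for Psmb5 (chr14:54617996-54618245, minus strand) and Psmb6 (chr11:70525107-70525356, plus strand), which hold the motif in capitals, and for Psmd14 (chr2:61711444-61711693, plus strand), which does not hold these letters.
Psmb5: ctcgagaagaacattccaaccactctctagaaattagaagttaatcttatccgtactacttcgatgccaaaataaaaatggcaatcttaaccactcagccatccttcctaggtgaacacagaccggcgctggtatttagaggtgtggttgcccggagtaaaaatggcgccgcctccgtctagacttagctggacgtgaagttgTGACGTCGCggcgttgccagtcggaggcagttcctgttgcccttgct
Psmb6: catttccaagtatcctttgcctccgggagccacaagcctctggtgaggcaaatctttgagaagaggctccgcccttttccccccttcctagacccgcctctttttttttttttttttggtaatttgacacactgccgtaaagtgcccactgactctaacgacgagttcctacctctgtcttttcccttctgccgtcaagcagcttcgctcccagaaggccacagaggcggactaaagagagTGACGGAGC
Psmd14: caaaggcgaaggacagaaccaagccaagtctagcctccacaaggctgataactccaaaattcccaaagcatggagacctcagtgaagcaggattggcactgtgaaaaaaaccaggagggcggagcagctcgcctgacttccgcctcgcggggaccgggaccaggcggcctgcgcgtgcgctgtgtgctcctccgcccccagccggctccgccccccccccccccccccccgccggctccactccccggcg
The match starts 47 bases before the start site in Psmb5 and 9 bases before it in Psmb6. A match is a description of letters and not a bound site.

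Most other genes of the ubiquitin and proteasome pathway had differences near 0. Of 30 listed genes 28 were measured, 11 had a positive and 17 a negative difference, and the median was -0.05. At an unadjusted p under 0.05, 2 were higher in R6/2, Ddi2 and Txnl1, against 3.7% of all genes, and 0 were lower, against 3.45%. Txnl1 is in this count although it passed the filter through the R6/2 arrays, so its p-value supports no difference. No gene of the list had an adjusted p under 0.05. Paaf1 and Nfe2l2 were not measured.

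The gene with separate groups was Ddi2, the protease that releases Nrf1 from its membrane-bound precursor. It had -0.61, -1.47, -1.15 and -0.83 in R6/2 replicates 1 to 4, against -3.05, -1.56, -3.71 and -2.21 in WT replicates 1 to 4. Every R6/2 array lay above every WT array, and the difference was +1.62 ± 0.45 (limma adjusted p = 0.555). Ddi2 was well above background on 4 R6/2 arrays but on 3 WT arrays, so the size of this difference is uncertain. Its further probe gave +0.51. Txnl1, a thioredoxin-like protein bound to the proteasome, had -2.23, -2.85, -2.997 and -3.52 in R6/2 replicates 1 to 4, against -5.08, -6.38, -2.998 and -5.27 in WT replicates 1 to 4. It was well above background on 4 R6/2 arrays but on 1 WT array, so it passed the filter through the group where it was high, and the fitted difference of +2.03 is no measured fold. WT replicate 3 lay within the R6/2 range. Nfe2l1 itself had -0.21 ± 0.47, and Ngly1, the deglycosylase that also processes Nrf1, was above background on 1 R6/2 array and 3 WT arrays, so that no difference is given. The ubiquitin gene Ubb had +0.18, the proteasome-bound deubiquitinases Usp14 and Uchl5 had -0.42 and +0.12, the maturation factor Pomp had -0.24, and the segregase Vcp had -0.09.

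Antigen presentation by MHC class I depends on peptides made by the proteasome. Of 10 listed genes 9 were measured, and 8 of these 9 differed in the positive direction (median +0.13), against 54% of all genes. At an unadjusted p under 0.05, 2 were higher in R6/2, against 3.7% of all genes, and 0 lower, against 3.45%, and 0 had an adjusted p under 0.05. Tap2, a chain of the peptide transporter, had -2.75, -2.50, -2.63 and -2.26 in R6/2 replicates 1 to 4, against -3.30, -2.89, -3.18 and -3.64 in WT replicates 1 to 4. All R6/2 arrays lay above all WT arrays, with a difference of +0.72 ± 0.22 (limma adjusted p = 0.596). Tap2 too was well above background on 4 R6/2 arrays but on 3 WT arrays. B2m, the light chain of MHC class I, had -1.18, 0.18, -0.28 and -0.59 in R6/2 replicates 1 to 4, against -0.68, -1.88, -1.92 and -3.15 in WT replicates 1 to 4. WT replicate 1 lay within the R6/2 range, and the difference was +1.44 ± 0.51 (limma adjusted p = 0.640). Tap1, the other transporter chain, had +0.16, and Irf1, a factor of the interferon response, had -0.11.

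**Figure D5:**
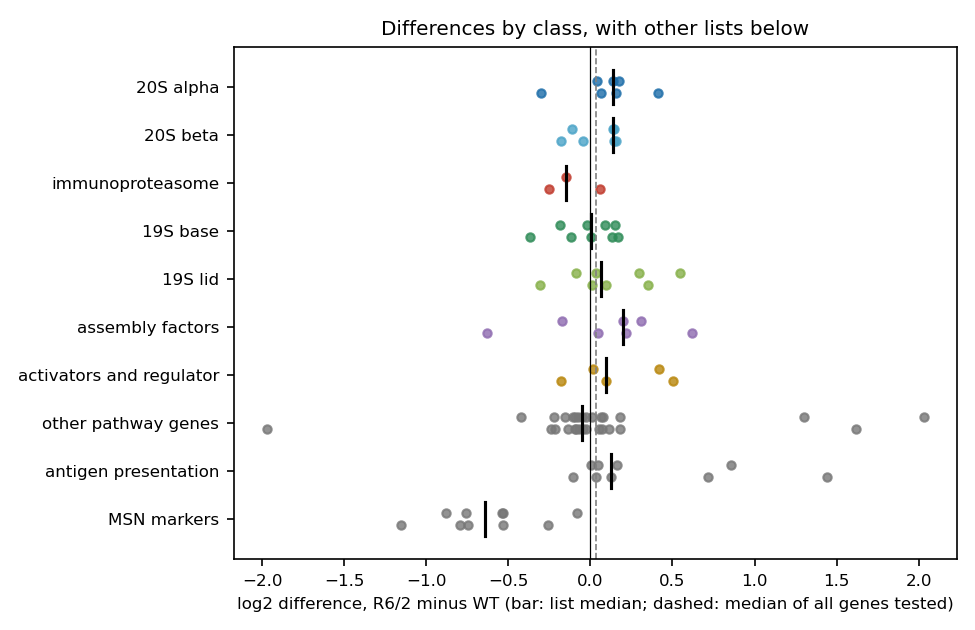
Log2 difference, R6/2 minus WT, of each gene (points) in the 7 proteasome classes and, in grey, of other pathway genes, antigen presentation genes and MSN markers, with list medians as black bars and the median of all genes tested dashed. The proteasome classes lie around 0 between -0.63 and +0.62, while all 10 MSN markers lie below 0. The outermost points, Txnl1 and Ngly1 among the other pathway genes, were not above background on 3 arrays of 1 group.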

How the data were processed

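RNA of sorted MSNs was measured on 8 Agilent arrays, 4 R6/2 and 4 WT. Per the file headers, the scanner files hold a processed intensity per spot (Agilent Feature Extraction 10.7.3.1), background-subtracted and not scaled between arrays, with probe coordinates on mm9. The authors' deposited log2 values, relative to each array's 75th percentile, differed from those computed here by at most 0.0072 and served as an alternative. The authors' p-value columns and their fold change, a ratio of group values in that deposited table, were not used for calls.

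Spots marked as outliers were left out (1 garbled line of R6/2 replicate 3 as well), spots of a probe were averaged, and log2 intensity minus the array's 75th percentile was the level. The brightest measured probe represented a gene. limma 3.58.1 on R 4.3.3 (lmFit, eBayes, two-sided) tested 26915 genes, with exact two-sided permutation tests over 70 assignments beside it for members. Benjamini-Hochberg adjustment ran over all genes, with a threshold of 0.05. The fit was tested on simulated data. With 4 arrays a group, their number limits precision. The replicate numbers do not pair the samples.

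Values by array are given for the 2 members of each class with the smallest p-value and for the catalytic subunits with their immunoproteasome counterparts, and for genes of the other lists with an unadjusted p under 0.05. Other genes of those lists are named for their role and were chosen after their values were seen. The members and lists were chosen with earlier results of these data known.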

Additional observations from a re-analysis of the deposited data

Results flagged for a closer look

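In 4 of 36 groups of 4 arrays, over 18 members, 1 array lay far from the other 3 by Dixon's test, which chance alone gives in about 1 of 20 groups. Psma6 had its lowest R6/2 level in replicate 2, at 2.99, with a gap of 0.954 of the group's range. Psmb5 had its lowest R6/2 level in replicate 1, at 4.34, with a gap of 0.921 of the range. Psmb8 had its highest R6/2 level in replicate 4, at -2.37, with a gap of 0.831. Psma4 had its highest WT level in replicate 3, at 2.00, with a gap of 0.854. The array of R6/2 replicate 4, with the high Psmb8 level, was the single one on its slide, so no comparison of genotypes within that slide exists.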

How the results depend on the processing

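The count of members with an adjusted p under 0.05 was 0 under all 18 alternatives: normexp background correction, quantile scaling, another percentile, the authors' log2 values, both filters on dim probes, the mean of a gene's probes, the replicate block, the slide block, the methods' t-test and each array left out. The median member difference stayed between 0.018 and 0.128. With 1 array left out, 0 to 2 of 46 members had an unadjusted p under 0.05, against 5.91% to 7.51% of all genes. These were Psmd14 and Psmd3 without WT replicate 1, and Psmd7 and Psmf1 without WT replicate 4. Psma6 was the member without R6/2 replicate 2, and Psmg1 the member without R6/2 replicate 3. The count of separate groups was then 0 to 4. Groups separate more easily with fewer arrays, and no share over all genes is given, so this count is not read as a result about the members. Same-numbered arrays had correlated deviations of 0.030, -0.046, 0.003 and -0.006 for replicates 1 to 4, and 1 of 4 numbers was best matched by its own number. The replicate block called 1 member, Psmd14, at an unadjusted p under 0.05, against 6.81% of all genes.

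Among single genes, Psmb6 (-0.04) was +0.013 with normexp, +0.027 with quantile scaling and +0.00062 with the percentile over probes above background on all arrays. Psmb9 (-0.15) was +0.400 with the mean of its probes and +0.0067 with the slide block, Psmb10 (+0.06) was -0.158 with the slide block, and Psme2 (-0.18) was +0.029 with the mean of its probes. With 1 array left out, the difference ran from -0.174 to +0.205 for Psmb6, -0.253 to +0.0067 for Psmb9, -0.215 to +0.398 for Psmb10, -0.207 to +0.085 for Psmb5, -0.026 to +0.366 for Psmb7 and -0.621 to +0.262 for Psmb8. Of the class medians, that of the immunoproteasome (-0.15) was +0.056 when probes were averaged and ran from -0.215 to +0.262 with 1 array left out, that of the assembly factors ran from +0.0007 to +0.395, and that of the activators from -0.057 to +0.291. The averaged values of Psmb9 and of the immunoproteasome include the further probe of Psmb9, which gave +0.95. That probe was well above background on 3 R6/2 arrays and 1 WT array. The cause of the other changes was not tested. The slide with both genotypes holds every array but R6/2 replicate 4, so its values equal those with that array left out.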
